A study of Arabidopsis thaliana with 18 samples.

Results

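The comparison set leaves of wild type Arabidopsis (Col) after 48 h of low temperature (LT) treatment against Col leaves at 0 h, the start of that treatment. Its members were chosen by array title and are 6 of the 18 arrays of the series, 3 of Col leaves at 48 h LT and 3 of Col leaves at 0 h LT. Plants of the 48 h group were 4 weeks old when they were moved to 7°C by day and night. Plants of the 0 h group were of the same age at harvest as those were at transfer, and had been kept at 22°C in the light and 18°C in the dark. Both groups received 12 h of light a day at 120 µmol photon m-2 s-1, and each array measured RNA pooled from leaves 9 to 11 of 3 plants, collected 1 h after lights on. The remaining arrays hold Col at 120 h and the tocopherol-deficient mutant vte2 at all 3 times. Here vte2 leaves at 48 h and at 0 h were used as a second, separate pair. The 120 h arrays were not compared, but they entered the estimate of the spread that all groups share. Expression was measured on Affymetrix ATH1 arrays as log2 values of 22810 probe sets, so a difference of 1 is a doubling.

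Chilling slows enzymes and membrane transport at once, and Arabidopsis is known for acclimating to it over days. CBF transcription factors turn on COR genes, whose hydrophilic proteins protect membranes, while sugars and anthocyanins build up in the leaf. Light capture is hardly slowed by cold whereas carbon metabolism is, and protein synthesis and ribosome assembly are among the processes long known to be cold sensitive.

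The arrays were not equally alike. At 48 h the 3 arrays correlated at 0.983 to 0.994 over all probe sets, with a median SD of 0.128 per probe set. At 0 h, replicates 1 and 2 correlated at 0.991, but replicate 3 correlated with them at 0.937 and 0.943, and the median SD was 0.211 with replicate 3 and 0.125 without it. Replicate 3 at 0 h lay more than 1 log2 unit below both other arrays in 1023 probe sets and above both in another 1023. Replicate 2 at 48 h stood apart in the same way, below both others in 384 probe sets and above both in 80. Counts are therefore given with all arrays and without 0 h replicate 3, and values of single genes with all arrays unless stated. Of the 249 genes described or listed here, 8 lost and 12 gained a call without 0 h replicate 3, and 14 lost and 1 gained one without 48 h replicate 2. In vte2, replicate 3 at 0 h stood apart too, below both other vte2 arrays in 712 probe sets and above both in 925. In 514 probe sets it was low in both genotypes, in 579 it was high in both, and in 5 the directions were opposite. The fit without 0 h replicate 3 of Col still held this vte2 array in the spread that all groups share. A call lost in that fit therefore also depends on the vte2 array. The leaf label held against markers: RCA, rubisco activase of the mesophyll, was between 12.90 and 13.06 at 48 h and between 13.36 and 13.63 at 0 h, while PYK10, a root beta-glucosidase, stayed between 3.32 and 3.77 on all 6 arrays. In pooled whole leaves, fewer cells of a type and less RNA per cell cannot be told apart. A probe set could be tied to 1 gene in 13513 cases, which gave 13264 genes, of which 1466 carried a name besides the locus number. The others are given by locus number only.

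With all arrays, 7368 of 22810 probe sets (32.3%) passed the test (limma, Benjamini-Hochberg adjusted p under 0.05), 3666 higher at 48 h (16.1%) and 3702 lower (16.2%). Without 0 h replicate 3, 7519 passed (33.0%), 3835 higher (16.8%) and 3684 lower (16.2%). The calls of both fits had the same direction in 6361 probe sets (27.9%), and in none did the direction turn. The groups did not overlap, that is, every 48 h array lay on the same side of every 0 h array, in 42.5% of all probe sets. Changes over 2-fold were called in 1904 probe sets in the direction of higher (8.35%) and in 1348 in the direction of lower (5.91%), and changes over 16-fold in 63 (0.276%) and 10 (0.0438%). Without 48 h replicate 2, 6529 passed (28.6%), 14.8% of probe sets higher and 13.8% lower. Among the 13264 genes, 29.9% were called with all arrays, 14.5% higher and 15.4% lower, with a median change of -0.085 on the log2 scale. The counts of each gene group below are set beside these shares. Gene lists were written from general knowledge with earlier results of these data known. Families formed by symbol, and single genes described beside them, were chosen after their values had been seen. No count is therefore a test of its group against these shares.

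The largest rises were 23.0- to 53.7-fold in 15 genes, of which DFR, SBT3.3 and COR15B carry a name. SBT3.3 encodes a subtilisin-like protease known from immune priming. Its values were 9.84, 9.57 and 10.35 at 48 h and 5.35, 4.92 and 4.35 at 0 h, so that every array at 48 h lay more than 4 log2 units above every array at 0 h. The change was 5.04 (33.0-fold; SE 0.24, adjusted p = 2.23e-09), and 4.79 without 0 h replicate 3. The top of the list, At3g48640, had 10.84, 9.29 and 11.04 at 48 h against 5.17, 4.71 and 4.05 at 0 h, a change of 5.75. Among genes with a name the next rises included the peroxidase Prx37, which changed by 3.87 and had 6.80, 7.84 and 6.93 at 48 h and 3.24 to 3.37 at 0 h. The second subtilase, SBT3.5, rose by 3.61, and CYP71B23, a cytochrome P450, rose 7.49-fold.

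The 15 largest falls were between 9.89-fold (At2g05540) and 24.3-fold (At1g13650), and EXPA8 and GSTU18 were the only ones with a name of their own. GSTU18, a tau glutathione transferase, had 5.30, 5.69 and 4.95 at 48 h and 8.74, 8.81 and 9.48 at 0 h, with a clear gap between the groups. It fell by 3.69 on the log2 scale (SE 0.24, adjusted p = 2.63e-08). BGLU40, a beta-glucosidase, came next with 5.59, 5.92 and 5.86 at 48 h and 9.07, 9.09 and 9.02 at 0 h. It fell by 3.27. ARD4, an acireductone dioxygenase of the methionine salvage cycle, changed by -2.55, and DI19, a zinc finger protein named for drought induction, by -2.48. WSD1, a wax ester synthase, was at 3.05 to 3.12 at 48 h and at 4.42, 4.93 and 6.58 at 0 h. It changed by -2.23 with all arrays and by -1.59 without 0 h replicate 3, the highest of the 0 h values.

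Most named cold-regulated genes were higher at 48 h, and the size of the rise depended on 0 h replicate 3 in COR15A, COR15B and LTI30. It hardly did in COR27 (2.23 with all arrays, 2.32 without that array) and At4g33980 (0.87 and 0.89). Of 7 named genes on the list of cold-regulated genes, 5 were called higher and none lower with all arrays, and 4 without 0 h replicate 3. With replicate 3 at 0 h of vte2 left out as well, 5 were called higher and 1 lower. The median change was 2.23 with all arrays and 1.51 without it. COR15A, a chloroplast protein that protects membranes in freezing, had 13.37, 13.38 and 13.38 at 48 h against 11.78, 11.51 and 7.52 at 0 h. The 48 h arrays were nearly identical, and the low replicate 3 at 0 h stood about 4 log2 units under the others. The change was 3.11 (SE 0.88, adjusted p = 0.0129), and 1.73 without replicate 3 (adjusted p = 0.0312). LTI30, a dehydrin, had 11.27, 10.92 and 11.44 at 48 h against 9.65, 9.75 and 4.09 at 0 h. Its change of 3.38 passed the test with all arrays (adjusted p = 0.0307), and its change of 1.51 without replicate 3 did not (adjusted p = 0.0803), nor did that of 3.52 without 48 h replicate 2 (adjusted p = 0.0562). COR47, a second dehydrin, overlapped between the groups, with 11.84, 10.96 and 11.89 at 48 h against 12.07, 12.03 and 8.46 at 0 h. The sign of its change differed between the fits, 0.71 with all arrays and -0.48 without replicate 3, and passed in neither. COR27, whose product represses clock genes, had 5.68, 4.88 and 6.13 at 48 h and, with replicate 3 alike to the others, 3.17, 3.31 and 3.51 at 0 h.

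**Figure D1:**
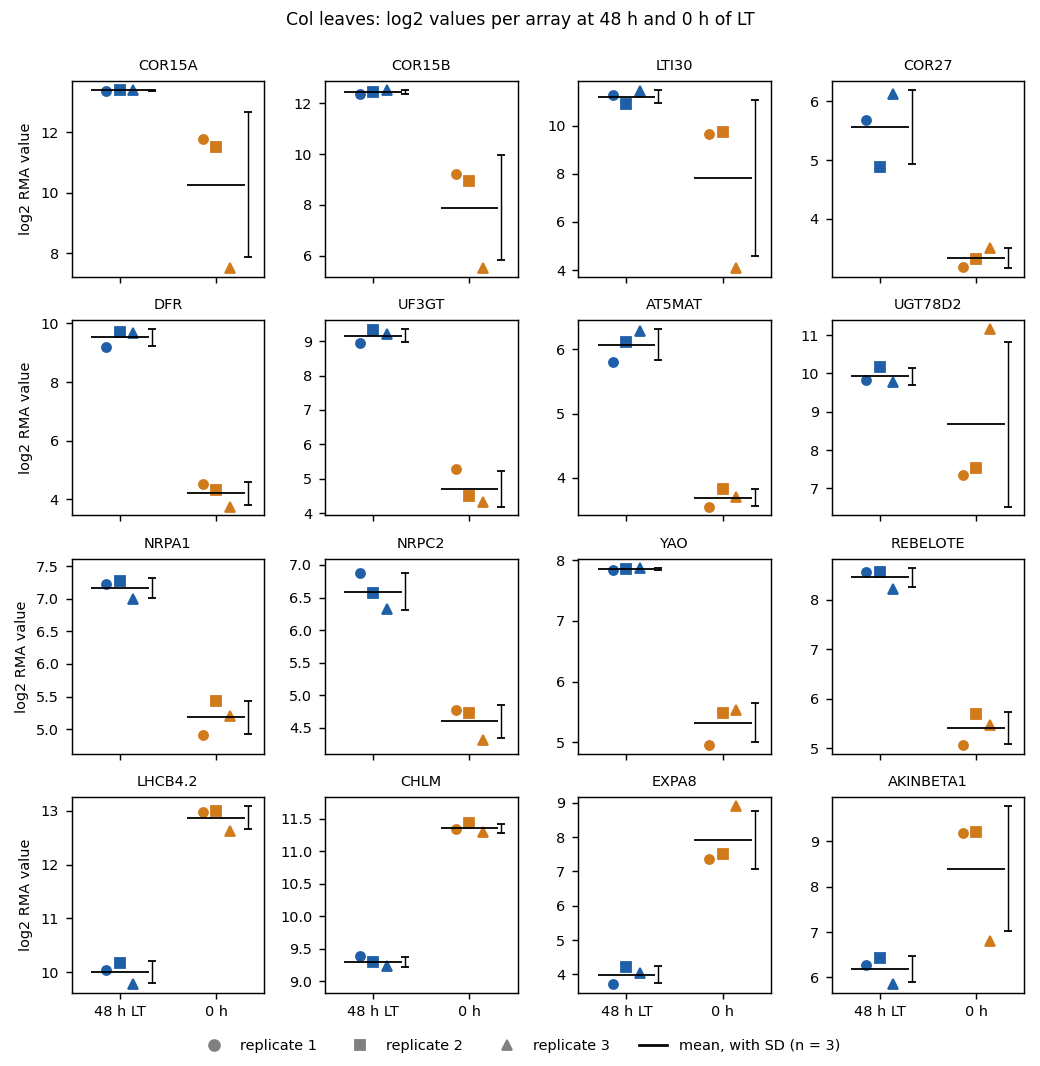
Log2 RMA value on the y axis for 16 genes in Col leaves, 48 h LT (blue, left) and 0 h (orange, right); marker shapes are replicates 1 to 3, the line is the mean and the bar its SD (n = 3). COR15A, COR15B, LTI30 and AKINBETA1 have a low replicate 3 at 0 h and UGT78D2 a high one, whereas the RNA polymerase subunits NRPA1 and NRPC2, YAO, REBELOTE, LHCB4.2 and CHLM have 3 alike arrays in each group.

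Genes of anthocyanin and flavonol synthesis were higher at 48 h. Of 7 named genes on the flavonoid list 5 were called higher with all arrays and 7 without 0 h replicate 3, and none was lower in either fit. The median change was 2.38 with all arrays and 2.49 without that replicate. AT5MAT, which adds a malonyl group to anthocyanins, had 5.81, 6.12 and 6.29 at 48 h against 3.55, 3.82 and 3.70 at 0 h. It rose by 2.38 (SE 0.16, adjusted p = 4.56e-08), with tight arrays in both groups. CHIL, a chalcone isomerase-like protein, rose by 2.04 (adjusted p = 0.00686). UGT78D2, the glucosyltransferase that puts a 3-O-glucose on flavonols and anthocyanidins, behaved otherwise: its values were 9.82, 10.18 and 9.79 at 48 h and 7.34, 7.54 and 11.17 at 0 h. Replicate 3 at 0 h lay above every 48 h array, so the change of 1.25 did not pass with all arrays (adjusted p = 0.351), and the change of 2.49 without it did (adjusted p = 0.0252). UGT78D1, a flavonol rhamnosyltransferase, also had its highest 0 h value in replicate 3, within the range of the 48 h arrays, with 9.10, 9.56 and 8.71 at 48 h and 7.66, 7.69 and 9.08 at 0 h.

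Genes of the machinery that makes RNA and ribosomes rose. Nuclear RNA polymerases are built of shared and class-specific subunits. Polymerase I makes ribosomal RNA, II messenger RNA and III transfer RNA and other short RNAs, while IV and V, found in plants, serve RNA-directed DNA methylation. Of 12 named subunits 11 were called higher and none lower, both with all arrays and without 0 h replicate 3, beside 14.5% of all genes called higher. The same count was reached without 48 h replicate 2. The subunits were grouped after their values had been seen, so the count describes them and does not test the family against that share. The median change was 1.40, and 1.62 without 0 h replicate 3. 

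NRPA1, the largest subunit of polymerase I, had 7.23, 7.28 and 6.99 at 48 h against 4.92, 5.43 and 5.21 at 0 h. The groups were separated by more than 1.5 log2 units, and the change was 1.98 (3.96-fold; SE 0.16, adjusted p = 1.44e-07). NRPA2, the second largest subunit of the same enzyme, had 8.39, 8.43 and 8.48 at 48 h and 6.46, 6.46 and 6.62 at 0 h. It was tight on both sides and rose by 1.92 (SE 0.13). NRPC2, the second largest subunit of polymerase III, had 6.88, 6.57 and 6.33 at 48 h and 4.78, 4.72 and 4.31 at 0 h, and rose by 1.99. NRPC1, the largest subunit of polymerase III, was dimmer, with 5.11, 4.61 and 4.38 at 48 h and 3.52, 3.74 and 3.64 at 0 h, and rose by 1.07.

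Small subunits moved in the same direction. NRPB12, a small subunit, rose by 1.75, NRPB9B by 1.54, NRPB7 by 1.27, NRPB6B by 1.16 and NRPB6A by 0.78. NRPE7, a subunit of polymerase V, had 6.43, 6.44 and 6.43 at 48 h against 4.94, 4.45 and 4.68 at 0 h, and rose by 1.74. NRPD7, of polymerase IV, rose by 0.79. NRPB9A was the exception, at 3.50, 3.58 and 3.52 at 48 h and 3.92, 3.51 and 3.49 at 0 h, near the bottom of the array's range and with a change of -0.11 that did not pass (adjusted p = 0.562). Its near copy NRPB9B was at 6.64 to 7.00 at 48 h and at 5.12 to 5.56 at 0 h.

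Genes placed on a list of nucleolar and ribosome assembly factors all rose. Of 10 genes 10 were called higher with all arrays and without 0 h replicate 3, and 9 without 48 h replicate 2. Their median change was 2.34, and 2.36 without 0 h replicate 3. PRH75, a nucleolar RNA helicase, had the smallest change (1.02), and At5g14520, for which PES (PESCADILLO) is a synonym, changed by 1.90. The other 8 are known here by locus number alone. They were placed on the list from general knowledge, with earlier results of these data known. At1g52930 had the largest change of these, with 10.17, 10.21 and 10.42 at 48 h against 6.72, 7.36 and 6.57 at 0 h. The groups were about 3 log2 units apart, and the rise was 3.39 (10.5-fold; SE 0.17, adjusted p = 2.6e-09). At3g22660 rose by 2.97 and At3g15460 by 2.71.

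Single genes of RNA processing outside the list, chosen after their values had been seen, are given next. YAO, a nucleolar WD40 protein, had 7.84, 7.85 and 7.88 at 48 h against 4.95, 5.48 and 5.53 at 0 h. The 48 h arrays were nearly identical, and the rise was 2.54 (5.81-fold; SE 0.17, adjusted p = 4e-08). REBELOTE, also a nucleolar protein, had 8.57, 8.57 and 8.22 at 48 h against 5.06, 5.70 and 5.46 at 0 h, and rose by 3.04. IMP4, a component of the complex that processes pre-ribosomal RNA, rose by 1.61. RRP41, a core subunit of the RNA exosome, rose by 0.65 and RRP41L, its relative, by 1.63. The transfer RNA 3′-end processing enzymes TRZ1 and TRZ3 rose by 1.08 and 1.63. PRL, an MCM helicase subunit of DNA replication and the single named gene on the cell division list, was higher as well, by 1.56.

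RNA processing in organelles gave a split result. Pentatricopeptide repeat (PPR) proteins bind organelle transcripts and guide their editing, splicing or stability. Of 10 named members 5 were called higher and none lower in both fits, and the median change was only 0.36. OTP81 had 7.69, 7.74 and 7.54 at 48 h and 3.79, 3.99 and 4.73 at 0 h. That is a rise of 3.48 (11.2-fold; SE 0.32, adjusted p = 6.79e-07), and 3.76 without 0 h replicate 3, the highest of the 0 h arrays. PPR596 had 8.92, 8.98 and 8.53 at 48 h and 6.03, 6.31 and 5.74 at 0 h and rose by 2.79, and PPR336 rose by 1.63. OTP84 (0.80) and OTP87 (0.57) rose less, and OTP87 was near the bottom of the array's range in both groups, at 2.80 to 3.78. The 5 without a call had changes between -0.23 (OTP70) and 0.16 (OTP80).

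Protein folding genes gave unlike counts in a list and in a family formed by symbol. Of 6 genes on the list of heat shock proteins and other chaperones 1 was called higher, Hsp70-2, and 1 lower, Hop3, in both fits, with a median change of -0.14. Of 16 chaperones and co-chaperones grouped by symbol, these 2 among them, 10 were called higher and 2 lower with all arrays, with a median change of 0.98. The counts were 10 and 3 without 0 h replicate 3, and 9 and 0 without 48 h replicate 2. Hsp70-2, a cytosolic HSP70, had 10.37, 8.93 and 10.28 at 48 h against 7.40, 7.45 and 7.55 at 0 h. Replicate 2 was the lowest of the 48 h arrays and still above all 0 h arrays, and the change was 2.39 (SE 0.43, adjusted p = 0.000442). The plastid chaperonins Cpn60beta2 and Cpn60beta3 rose by 1.32 and 1.31. The co-chaperones Hop1 and Hop2, which hand proteins from HSP70 to HSP90, rose by 1.01 and 1.05 with SDs of 0.15 or less in each group. Hop3, the third of the family, was lower by 0.54, at 3.23, 3.01 and 3.07 at 48 h against 4.05, 3.41 and 3.46 at 0 h. These values are near the bottom of the array's range, and the call was lost without 48 h replicate 2 (adjusted p = 0.0511).

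In the endoplasmic reticulum, ATERDJ2A, a J-domain partner of translocation, rose by 0.91. BZIP60, the transcription factor of the unfolded protein response, had 9.92, 9.18 and 10.20 at 48 h and 8.21, 8.42 and 8.53 at 0 h, and rose by 1.38 (SE 0.22). CRT1b, a calreticulin, was an uneven case, with 9.47, 11.22 and 9.21 at 48 h against 8.87, 8.80 and 8.57 at 0 h. Its change of 1.22 passed (adjusted p = 0.0185) and was 0.59 without 48 h replicate 2 (adjusted p = 0.0286). ATERDJ3B had the same shape, with replicate 2 at 9.76 and the others at 8.35 and 8.31 at 48 h, against 7.64 to 8.01 at 0 h. Its change of 0.96 no longer passed without that array (0.48, adjusted p = 0.0718), nor without 0 h replicate 3 (adjusted p = 0.064). Fes1B, a nucleotide exchange factor of HSP70, went the other way, with 3.78, 3.72 and 4.28 at 48 h and 7.59, 7.27 and 4.15 at 0 h. It changed by -2.41, and without 48 h replicate 2 its change of -2.31 did not pass (adjusted p = 0.0718).

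Genes of mitochondrial respiration rose in part, and some relatives that did not pass were near the floor of the array. Of 15 named genes of the tricarboxylic acid cycle and the respiratory chain 9 were called higher and none lower with all arrays, and 8 higher without 0 h replicate 3. The median change was 0.86. NDB2, an external NADH dehydrogenase that bypasses the first proton pump of the chain, had 9.89, 10.27 and 10.37 at 48 h against 7.10, 7.47 and 7.79 at 0 h. It rose by 2.72 (6.6-fold; SE 0.29, adjusted p = 3.69e-06), and every 48 h array exceeded every 0 h array by at least 2 log2 units. Its relatives did not pass, with changes of -0.41 in NDB1, 0.00 in NDB3 and -0.15 in NDB4. Of these, NDB4 was near the floor of the array in both groups, at 3.41 to 4.07.

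SDH1-1, the flavoprotein of succinate dehydrogenase, rose by 1.35 and its iron-sulfur partner SDH2-1 by 0.91, while SDH1-2 changed by -0.22 without passing. The NAD-dependent isocitrate dehydrogenase subunits IDH-V and IDH-VI rose by 0.86 and 1.23. IDH-III and IDH-IV, both close to the floor of the array at 3.29 to 4.23, did not pass. CYTC-1, a cytochrome c, had 11.33, 11.38 and 11.43 at 48 h and 10.56, 10.56 and 10.25 at 0 h, and rose by 0.92 (SE 0.11). CYTC-2 rose by 1.24. NDC1, a further alternative NADPH dehydrogenase that is also found in plastids, rose by 0.89.

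The defence list held 1 named gene, WRKY53, which did not pass, and 2 of 7 named WRKY genes were called higher and none lower. Some single genes known from immune perception, chosen after their values had been seen, were higher at 48 h. EFR, the receptor of a bacterial elongation factor peptide, averaged 5.82 ± 0.42 at 48 h and 4.23 ± 0.41 at 0 h (SD, n = 3 each). It rose by 1.59 (SE 0.22, adjusted p = 5.27e-05). BIK1, the receptor-like kinase that acts below such receptors, had 8.95, 7.73 and 9.43 at 48 h and 6.97, 6.79 and 6.46 at 0 h, and rose by 1.97. SAG101, a partner of the immune regulator EDS1, rose by 2.62. The receptor-like kinases B120 and SD1-29 rose by 3.70 and 2.86. B120 had 8.08, 6.11 and 8.66 at 48 h and 3.94, 4.20 and 3.60 at 0 h, while SD1-29 had 3 alike 48 h arrays (8.68, 8.28 and 8.64).

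Calcium-linked genes split by member. CML37, a calmodulin-like protein, had 7.39, 4.27 and 7.79 at 48 h and 3.53, 4.03 and 3.30 at 0 h. Replicate 2 at 48 h was barely above the 0 h arrays while the others were at least 3 log2 units higher, and the change was 2.86 with all arrays and 3.97 without replicate 2. CML42, with 9.26, 7.96 and 9.78 at 48 h against 6.83, 7.03 and 7.29 at 0 h, rose by 1.95. In all, 3 of 7 named calmodulin-like genes were called higher and 2 lower (CML23 and CML30), with a median change of 0.04. CML23 was near the floor of the array in both groups, at 3.27 to 4.16.

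Glutamate receptor-like channels, which carry calcium across membranes, were called higher in 4 of 8 named genes and lower in 1, and in 4 and none without 0 h replicate 3. ATGLR1.2 had 7.88, 5.81 and 7.48 at 48 h and 3.68, 4.08 and 3.96 at 0 h and rose by 3.14. GLR2.7, GLR2.8 and GLR2.9 rose by 1.68, 1.75 and 1.10. Of these GLR2.7 alone was not low in replicate 2, with 8.20, 8.30 and 7.73 at 48 h. GLR3.3, GLR3.5 and GLR3.6 had changes between -0.47 and 0.02, and only GLR3.3 passed, in the fit with all arrays. WRKY6, a transcription factor of senescence and defence, averaged 8.14 ± 0.74 at 48 h and 5.09 ± 0.17 at 0 h (SD, n = 3 each) and rose by 3.05, whereas WRKY22 and WRKY53 had changes of 0.37 and 0.43 that did not pass.

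Of the 384 probe sets in which 48 h replicate 2 lay more than 1 log2 unit below both other 48 h arrays, 236 were called higher. Over all probe sets 16.1% were. The 384 were chosen by 48 h values that also enter the call, so the 2 shares cannot be compared. UGT76B1, a glycosyltransferase acting on isoleucic acid in immune signalling, had the opposite order, with 6.96, 9.17 and 6.79 at 48 h against 4.79, 5.03 and 3.82 at 0 h. Its change of 3.09 became 2.33 without replicate 2. The reason for the different values of replicate 2 was not tested.

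**Figure D2:**
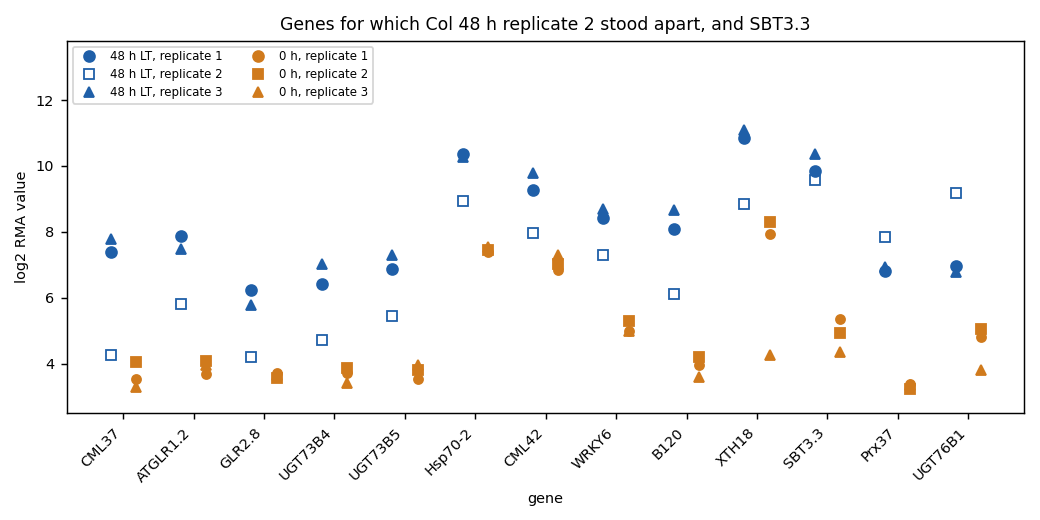
Log2 RMA value on the y axis for 13 genes on the x axis, Col 48 h LT (blue, left of each pair; replicate 2 as an open square) and Col 0 h (orange, right). In CML37 replicate 2 is at 4.27 beside 7.39 and 7.79, in Prx37 and UGT76B1 it is the highest of the 48 h arrays, and in SBT3.3 the 3 arrays lie together.

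Genes of photosynthesis were lower at 48 h. All 10 named genes on the photosystem list and all 7 on the carbon fixation and photorespiration list were called lower in both fits and without 48 h replicate 2, beside 15.4% of all genes with all arrays. The medians were -1.20 and -0.72 with all arrays, and -1.26 and -0.65 without 0 h replicate 3. LHCB4.2, a minor antenna protein of photosystem II, had 10.04, 10.18 and 9.78 at 48 h and 12.99, 13.01 and 12.62 at 0 h. It fell by 2.87 on the log2 scale (7.33-fold; SE 0.15, adjusted p = 3.29e-09). Its relative LHCB4.3 changed by -2.40 and LHCB4.1 by -1.19, so all 3 genes of this antenna protein were lower. Whether the 3 changes differ was not tested. PSB27, a photosystem II repair factor, and PSAN, a photosystem I subunit, changed by -1.23 and -1.21. ATPC1, the gamma subunit of the plastid ATP synthase, changed least, by -0.36.

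Single genes of thylakoid assembly and regulation, chosen after their values had been seen, were also lower. LPA2, an assembly factor of photosystem II, had 7.39, 7.31 and 7.36 at 48 h against 9.10, 9.12 and 9.01 at 0 h, with little spread in each group. The fall was 1.72 on the log2 scale (SE 0.09, adjusted p = 3.06e-09). TRXF2, a plastid thioredoxin that activates carbon fixation enzymes in the light, changed by -1.91. TROL, which tethers ferredoxin-NADP reductase to thylakoids, changed by -1.13, and CaS, the thylakoid calcium-sensing protein, by -1.44.

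Cyclic electron flow around photosystem I runs through the chloroplast NDH complex and through the PGR5/PGRL1 route. The 3 named NDH genes were all called lower in both fits, NdhS by 1.60, NdhN by 1.48 and NdhL by 1.25 log2 units. PGRL1B, of the other route, had 5.84, 5.70 and 6.06 at 48 h and 7.32, 7.26 and 7.67 at 0 h, and changed by -1.55.

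Chlorophyll synthesis genes were lower in part. Of 8 named genes 5 were called lower and none higher in both fits. CHLM, which methylates magnesium protoporphyrin, had 9.39, 9.29 and 9.23 at 48 h against 11.35, 11.42 and 11.29 at 0 h. It fell by 2.05 on the log2 scale (4.14-fold; SE 0.12, adjusted p = 1.05e-08), the largest change on the list. HEME1, a uroporphyrinogen decarboxylase, changed by -1.61, HEMB1, of an earlier step, by -0.98, and HEME2, a relative of HEME1, was 2.0-fold lower. At1g74470, for which geranylgeranyl reductase is a synonym, changed by -1.09, with nearly equal 0 h arrays (12.91, 12.91 and 12.95). GSA1, at the entry of the pathway, and CHLI2 did not pass. PORB, which makes chlorophyllide in the light, had 9.58, 9.85 and 9.26 at 48 h and 11.16, 10.90 and 8.42 at 0 h. Its change was -0.60 with all arrays (adjusted p = 0.533) and -1.47 without 0 h replicate 3 (adjusted p = 0.0504).

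In photorespiration, HPR, the peroxisomal hydroxypyruvate reductase, had 11.03, 11.10 and 11.05 at 48 h and 12.53, 12.59 and 12.71 at 0 h. It changed by -1.55 (SE 0.11), and LrgB, which carries glycolate and glycerate across the plastid envelope, by -1.34. SBPASE and PRK, of the Calvin cycle, changed by -0.71 and -0.64. RCA, the activase named above as the leaf marker, changed by -0.54.

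Plastid ascorbate peroxidases, which remove hydrogen peroxide, moved apart. SAPX, the stromal and mitochondrial form, had 10.39, 10.59 and 10.74 at 48 h against 8.11, 8.60 and 8.43 at 0 h. It rose by 2.20 (4.58-fold; SE 0.13, adjusted p = 1.49e-08). TAPX, the thylakoid-bound form, had 8.68, 8.77 and 8.66 at 48 h against 10.04, 10.02 and 10.42 at 0 h. It fell by 1.46 on the log2 scale (SE 0.11, adjusted p = 7.13e-08). The groups did not overlap in either gene. The glutathione reductase GR1 rose by 0.83, and the second reductase gene GR, at 10.22 to 10.40 at 48 h and 10.40 to 10.53 at 0 h, did not pass.

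Among genes of growth and cell shape, lower calls outnumbered higher ones in the groups below, other than the xyloglucan endotransglucosylases. In most of these groups, most members were not called. Over all genes, 15.4% were called lower and 14.5% higher with all arrays. Expansins loosen cell walls. Of 19 named expansin genes 5 were called lower and 1 higher with all arrays, and 6 and 1 without 0 h replicate 3, with a median change of -0.30. EXPA16 had 4.71, 4.53 and 4.97 at 48 h and 6.83, 7.02 and 6.36 at 0 h, and was 4.0-fold lower. EXPB1 changed by -1.67, and EXLA2 by -2.27 with all arrays and -3.01 without 0 h replicate 3, while its change of -2.23 without 48 h replicate 2 did not pass (adjusted p = 0.0755). EXLA1 had 7.75, 5.66 and 6.71 at 48 h against 10.77, 10.90 and 6.26 at 0 h. Its groups overlapped through replicate 3, and its change of -2.61 did not pass with all arrays (adjusted p = 0.0991) but was -4.13 without that array (adjusted p = 0.00324). EXPA9 was the one that rose, by 2.53, with 7.35, 7.30 and 7.53 at 48 h and 5.12, 4.55 and 4.92 at 0 h. Xyloglucan endotransglucosylases, which cut and rejoin wall xyloglucan, gave 1 call in each direction among 10 named genes with all arrays, XTH18 higher and XTH32 lower (-1.05). The counts were none higher and 1 lower without 0 h replicate 3, and 2 higher and 1 lower without 48 h replicate 2. Without replicate 3 at 0 h of both genotypes they were 1 higher and 2 lower. XTH18 had 10.84, 8.86 and 11.10 at 48 h and 7.93, 8.28 and 4.25 at 0 h, and its call was lost without 0 h replicate 3 (2.16, adjusted p = 0.0861). XTH19 had 7.49, 3.99 and 7.70 at 48 h and 5.16, 5.83 and 4.25 at 0 h. Its change of 1.31 did not pass (adjusted p = 0.197), but that of 2.51 without 48 h replicate 2 did (adjusted p = 0.000521).

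RALF-like peptides are secreted signals, several of which alkalinize the wall and slow cell expansion. Of 10 named genes 4 were called lower and none higher. RALFL34 had 8.20, 8.35 and 8.27 at 48 h against 10.07, 9.93 and 9.93 at 0 h. The groups were more than 1.5 log2 units apart, and the fall was 1.70 (SE 0.10, adjusted p = 1.05e-08). RALFL24 changed by -1.75, RALFL32 by -1.58 and RALFL31 by -1.19. RALFL33 joined the calls only without 0 h replicate 3, with -1.13 (adjusted p = 0.0451).

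Proteins that organise microtubules behaved similarly. SPIRAL1-like proteins bind cortical microtubules and keep cells growing straight, and 3 of 4 were called lower. SP1L4 had 3.83, 3.73 and 3.85 at 48 h and 5.94, 5.97 and 6.98 at 0 h, and changed by -2.49. SP1L3, at 7.43, 7.72 and 7.25 at 48 h and 8.94, 9.26 and 9.10 at 0 h, changed by -1.63. IQ-domain proteins, which tie calmodulin to microtubules, were lower in 7 of 15 named genes with all arrays and in 6 without 0 h replicate 3, and higher in none. IQD23, IQD30 and iqd21 changed by -1.04, -1.03 and -1.33. TRM proteins, which recruit the TON1 complex to microtubules, were lower in 4 of 14 with all arrays and 3 without 0 h replicate 3, led by TRM20 (-1.13).

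Genes of leucine breakdown and other salvage routes, known from carbon-starved leaves, were lower in part at 48 h. MCCA, a subunit of methylcrotonyl-CoA carboxylase in leucine breakdown, had 4.73, 5.21 and 4.98 at 48 h against 7.86, 7.82 and 6.17 at 0 h. All 0 h arrays were above all 48 h arrays, replicate 3 by the least, and the change was -2.32 (adjusted p = 0.00276), and -2.87 without it. MCCB, the other subunit, changed by -0.87, ETFQO, which passes the electrons of this route to ubiquinone, by -1.79, and ETFALPHA by -0.54. IVD, isovaleryl-CoA dehydrogenase, was at 5.31 to 5.51 at 48 h and at 6.37, 6.89 and 5.23 at 0 h, and passed only without 0 h replicate 3 (-1.19, adjusted p = 0.0108). In all 4 of 6 named genes of the route were called lower with all arrays and 5 without that array.

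The ureide breakdown enzymes ALN (allantoinase), AAH and UGLYAH were all called lower with all arrays, with changes of -1.80, -0.86 and -0.41. UGLYAH was near the floor of the array in both groups, at 3.68 to 4.32, and no longer passed without 0 h replicate 3. Of 10 named autophagy (ATG) genes 4 were called lower and 2 higher with all arrays, 6 and 1 without 0 h replicate 3, and 3 and none without 48 h replicate 2. ATG8C, a ubiquitin-like protein of the autophagosome membrane, had 7.09, 7.05 and 6.83 at 48 h and 8.04, 8.27 and 8.09 at 0 h, and changed by -1.14. ATG8F changed by -1.44 and ATG3, which conjugates ATG8 to lipid, by -0.68, while ATG8D was at 6.97 to 7.29 at 48 h and at 5.19, 5.56 and 6.96 at 0 h, and its call was lost without 48 h replicate 2 (1.11, adjusted p = 0.102). AKINBETA1, a subunit of the energy-sensing SnRK1 kinase, had 6.27, 6.42 and 5.86 at 48 h against 9.18, 9.21 and 6.81 at 0 h. Its change was -2.22 with all arrays and -3.01 without replicate 3.

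**Figure D3:**
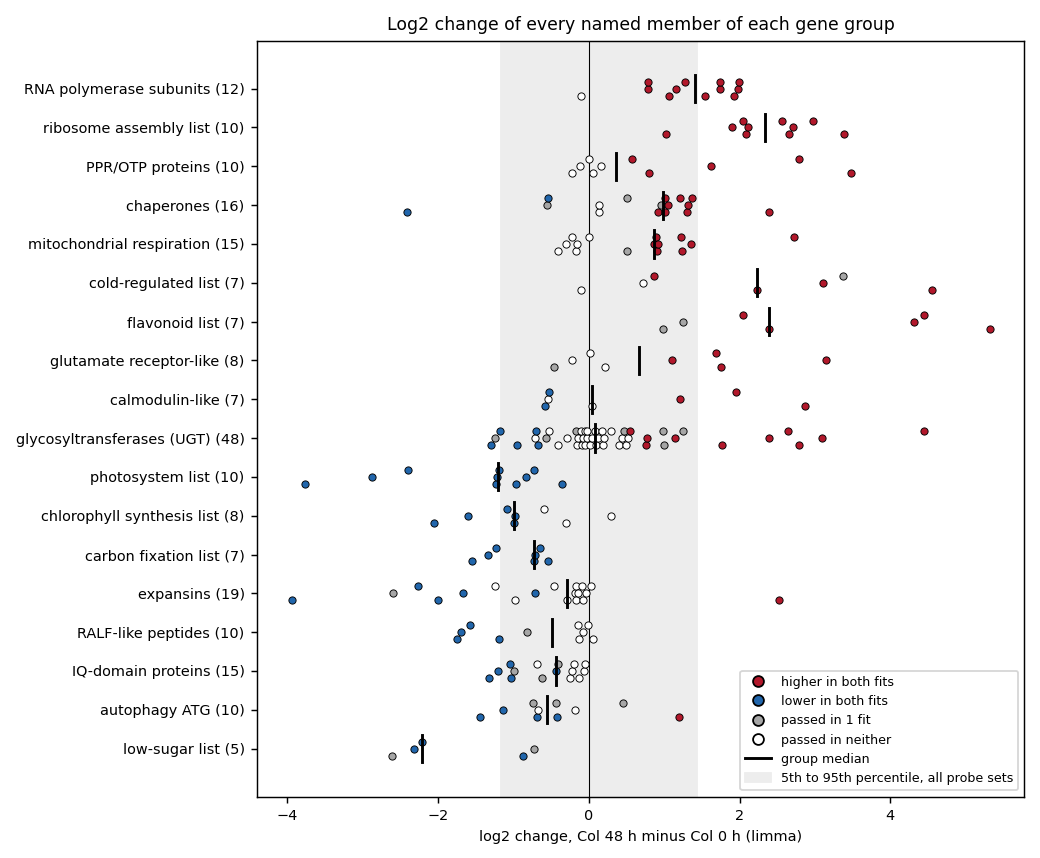
Log2 change, Col 48 h minus Col 0 h, on the x axis for every named member of 18 gene groups (rows, with the number of members), filled by whether the change passed in both fits, in 1 or in neither; the black bar is the group median and the grey band the 5th to 95th percentile of all probe sets (-1.17 to 1.43). RNA polymerase subunits and ribosome assembly genes lie to the right with 1 exception, NRPB9A, and the photosystem and carbon fixation lists lie wholly left of 0.

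Leaving out 0 h replicate 3 moved the change by a median of 0.0819 and by more than 1 log2 unit in 245 probe sets. The 5 genes it moved most had a 0 h group in which replicate 3 lay far from the others. At3g15450 had 6.42, 6.15 and 6.43 at 48 h against 11.40, 11.25 and 4.18 at 0 h, and its change was -2.61 with all arrays (adjusted p = 0.287) and -4.99 without replicate 3 (adjusted p = 0.013). At5g19120 had 6.84, 6.50 and 6.39 at 48 h against 11.16, 11.32 and 4.65 at 0 h, with a change of -2.47 with all arrays and of -4.67 without replicate 3. At5g42760 was the mirror image, with 7.95, 8.74 and 7.92 at 48 h against 4.33, 4.63 and 10.55 at 0 h. In these 3 genes the 48 h arrays lay between 0 h replicate 3 and the other 0 h arrays. At5g61590 had 8.64, 8.21 and 7.97 at 48 h against 10.55, 10.81 and 3.28 at 0 h, and its change was 0.06 with all arrays and -2.40 without replicate 3, where it did not pass (adjusted p = 0.195). At1g15010 had a change of -0.66 with all arrays and of -2.66 without replicate 3 (adjusted p = 0.0225). In all, 1007 probe sets lost their call when the array was left out and 1158 gained one. In vte2 the 0 h values of At3g15450 were low in replicate 3 as well (4.44), those of At5g19120 too (4.94), and those of At5g42760 high (10.31). What set replicate 3 apart in both genotypes was not tested.

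**Figure D4:**
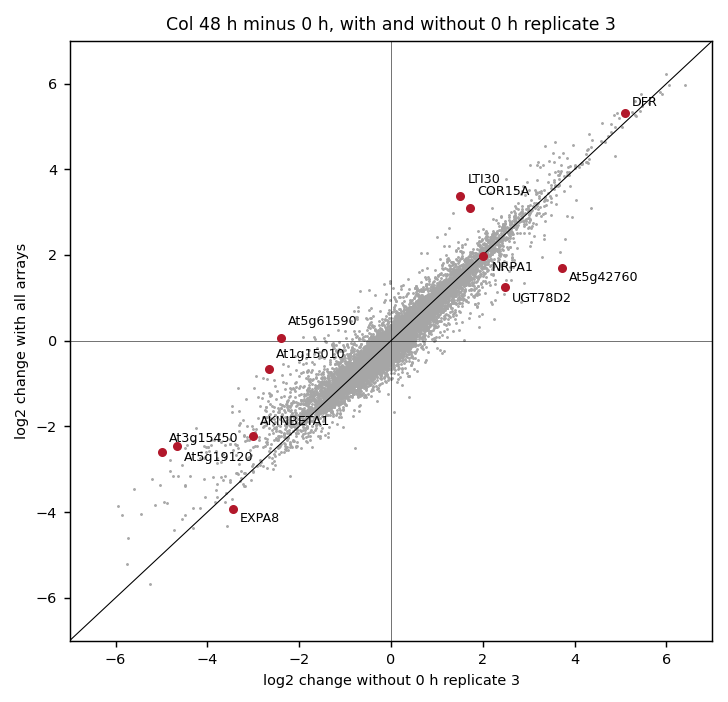
Log2 change, Col 48 h minus Col 0 h, for all 22810 probe sets (grey), with all arrays on the y axis and without 0 h replicate 3 on the x axis; the diagonal marks equal values. NRPA1 lies on the diagonal and DFR a little above it, at 5.32 with all arrays and 5.10 without 0 h replicate 3, while LTI30 (3.38 and 1.51) and COR15A (3.11 and 1.73) lie above it and At5g42760 (1.70 and 3.72) below.

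The same interval in vte2, measured against the 0 h arrays of vte2 itself, called 7836 probe sets (34.4%), 17.2% higher and 17.2% lower. Of the probe sets called higher in Col, 84.0% (3080) were also called higher in vte2, which is 78.6% of those of vte2. For lower calls the shared 2648 were 71.5% of those in Col and 67.6% of those in vte2, and 12 probe sets were called in opposite directions. The test of the difference between the responses of vte2 and Col passed in 12 probe sets (0.0526%), 11 with a higher response in vte2 (0.0482%) and 1 with a lower one (0.00438%), and 1683 had an unadjusted p under 0.05. It passed in 311 probe sets without Col 0 h replicate 3, in 191 without vte2 0 h replicate 3 and in 763 with both of these arrays left out. At 0 h, replicate 3 of vte2 and replicate 3 of Col deviated together from their group means (correlation 0.791 over probe sets). For replicates 1 and 2 the correlations were 0.397 and 0.482 between equal numbers. Between unequal numbers they were 0.462 and 0.496, so the number did not pair these arrays. With the replicate number as a block within each time, over the 12 arrays compared, the test passed in 3 probe sets, and over the same arrays without the block in 2. The median change was 1.32 in vte2 and 1.40 in Col for RNA polymerase subunits, and 2.43 in vte2 and 2.34 in Col for the ribosome assembly list. For the photosystem list it was -1.53 in vte2 and -1.20 in Col. With all arrays, where 12 probe sets passed in total, no member of these 3 groups passed the test of the difference. Members were not counted in the fit without both replicate 3 arrays, where 763 passed. A difference that did not pass does not show that the 2 responses were equal. The change of NRPA1 was 2.39 in vte2 and 1.98 in Col, a difference of 0.41 that did not pass (adjusted p = 0.728).

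At1g26450, a gene at the floor of the array in Col, had 3.73, 3.66 and 3.88 at 48 h and 4.07, 3.77 and 3.66 at 0 h. Its change was 2.75 in vte2 and -0.08 in Col, and the difference of 2.83 passed (adjusted p = 0.000175). TET5, a tetraspanin, went opposite ways, by 0.72 in vte2 and by -0.90 in Col, where it had 4.28, 4.40 and 4.17 at 48 h and 5.24, 5.25 and 5.05 at 0 h. The 1 gene with a lower response in vte2 was At1g04680, which changed by -2.70 in vte2 and by -1.63 in Col.

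**Figure D5:**
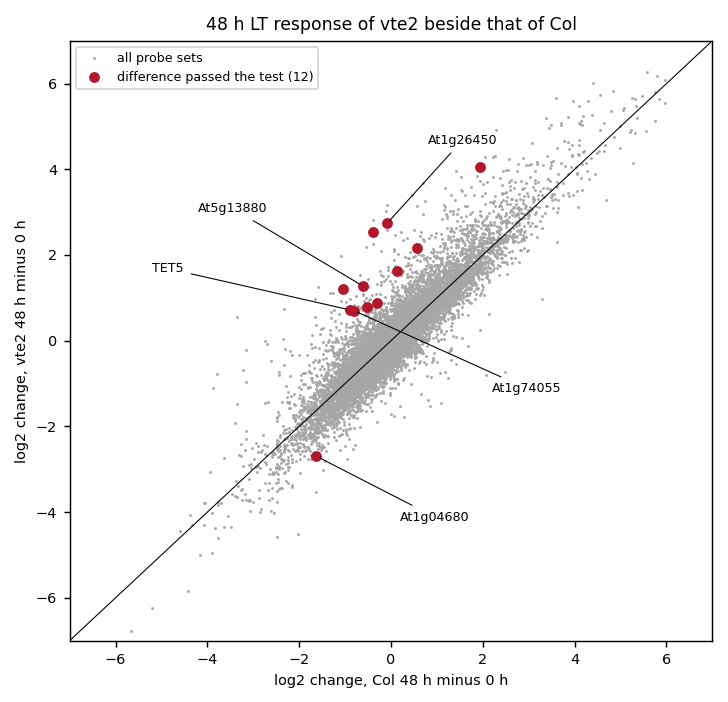
Log2 change from 0 h to 48 h in vte2 (y axis) and in Col (x axis) for all probe sets; the 12 red points passed the test of the difference and the diagonal marks equal responses. At1g26450 lies at 2.75 in vte2 and -0.08 in Col, and At1g04680 is the single red point below the diagonal.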

How the data were processed

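Leaf RNA of Col and vte2 was hybridised to 18 Affymetrix ATH1 arrays. What the authors deposited are log2 expression values from RMA (affy), a method that corrects background, quantile-normalises all arrays together and summarises probes into 22810 probe sets. Group means of genotype and time were fitted with limma (version 3.58.1, R 4.3.3) over all 18 arrays, which left 12 residual degrees of freedom, with Benjamini-Hochberg adjustment over all probe sets. The number of arrays limits the precision. Where a gene had several probe sets, the brightest stood for it. In 145 such genes the calls were never opposite, and in 43 some probe sets passed and others did not. Genes were named when their change was among the 15 largest in either direction, called with and without 0 h replicate 3 and without overlap, once over all genes and once over genes with a name; list members, the 5 genes that 0 h replicate 3 moved most and up to 4 differences in each direction between vte2 and Col were added. The gene lists, the families chosen by symbol and single added genes were picked with earlier results of these data known. Pairs of arrays with the same replicate number did not deviate together at 48 h and 0 h (correlations 0.165, -0.267 and -0.231), so replicate numbers were not used as a block for Col. Between vte2 and Col at 0 h, the replicate 3 arrays deviated together (0.791), a pairing that only the data give. Replicates 1 and 2 correlated as much between unequal numbers (0.462 and 0.496) as between equal ones (0.397 and 0.482). At 48 h not all arrays of equal number deviated together (0.205, 0.054 and 0.302). Alternatives covered a block, normalisation, a filter on dim probe sets, array weights, another prior, a test against 1.5-fold and each array left out. The array titles call the replicates biological. Each p-value weighs a change against the spread of arrays within groups, estimated over all 18 arrays and so shared with vte2 and 120 h.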

Additional observations from a re-analysis of the deposited data

Results flagged for a closer look

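Besides the count of 12 probe sets whose 48 h response differed between vte2 and Col, 5 single genes were picked out by that test of the difference. At1g26450 (2.83), At5g13880 (1.88), TET5 (1.61) and At1g74055 (1.51) had the higher response in vte2 and At1g04680 the lower one (-1.07), all as log2 differences of the 2 responses. At1g74055 changed by 0.70 in vte2 and by -0.81 in Col, and At5g13880 by 1.27 in vte2 and by -0.61 in Col, where its values lay between 3.75 and 4.04 at 48 h and between 4.15 and 4.82 at 0 h. The adjusted p-values (limma) ran from 0.000175 for At1g26450 to 0.0497 for At5g13880. With 3 arrays in a group, no single array was tested as an outlier.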

How the results depend on the processing

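The count of probe sets called between Col at 48 h and 0 h stayed within 1.5 times of 7368 under the alternatives run, except under those given here. It was 2383 (1497 higher, 886 lower) when tested against a 1.5-fold change. Numbers did not pair the arrays, and with the replicate number as a block it was 7648 over all 18 arrays and 3849 (2134 higher, 1715 lower) over only the 6 arrays compared. Leaving out each array gave 5990 to 7519 calls, 3219 to 3835 higher and 2771 to 3684 lower. The count of differences between vte2 and Col, 12, moved more. It was 2 with only the arrays compared, 3 with those arrays and a replicate block, 2 against 1.5-fold, 7 without the 40% dimmest probe sets, 117 with array weights and 763 without replicate 3 at 0 h of both genotypes. Leaving out each array gave 6 to 311 differences, with 311 when Col replicate 3 at 0 h was dropped, 191 when replicate 3 of vte2 at 0 h was, and 45 when Col replicate 3 at 48 h was. It was 7 when Col replicate 1 at 48 h or at 0 h or vte2 replicate 2 at 48 h was left out, and 6 when vte2 replicate 3 at 48 h was. The cause was not tested.

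Of 249 named genes 202 were called, and 142 of these kept their call in all settings other than the test against 1.5-fold, while 117 kept it in that one too. Among genes with a call in at least 1 of the fits set side by side, a direction turned in At5g61590, with a change of -2.404 without replicate 3 at 0 h of both genotypes, against 0.06 with all arrays. In all, 12 genes, At5g61590, COR47 and WRKY22 among them, had a change of the other sign in some setting with neither value called. Centring arrays on their median moved the median change of all probe sets to -0.12 and cyclic loess moved it to -0.005, against -0.08. The planned count of promoter motifs was not run because no promoter sequences were available here.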

Other observations

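Sugar carriers changed by member. TMT2, which loads sugars into the vacuole, had 7.68, 7.84 and 7.65 at 48 h against 6.05, 6.30 and 7.20 at 0 h and rose by 1.21 (adjusted p = 0.00304), whereas SWEET17 and SWEET16, which let fructose and other sugars out of it, changed by -1.57 and -1.17. The call of SWEET16 was lost without 48 h replicate 2 (-1.10, adjusted p = 0.109). SWEET11, which exports sucrose towards the phloem, overlapped between the groups, at 10.57 to 11.09 at 48 h and 10.55 to 11.76 at 0 h. Among starch genes ATGWD3, a phosphoglucan, water dikinase of starch breakdown, had 9.00, 8.90 and 8.98 at 48 h and 6.18, 6.49 and 8.42 at 0 h. It rose by 1.93, and by 2.63 without 0 h replicate 3. SBE2.2, a branching enzyme of starch synthesis, changed by -0.99.

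Regulators of iron uptake and of stomata were lower in part. ILR3, bHLH115 and bHLH121, related bHLH factors of iron signalling, changed by -1.11, -0.69 and -0.96, while bHLH104 (-0.22) and bHLH34 (-0.57) did not pass. SPCH, which starts the stomatal lineage, changed by -0.55 at the floor of the array, and STOMAGEN, a mesophyll peptide that promotes stomata, by -1.25, a call that was lost without 0 h replicate 3 (-0.65, adjusted p = 0.168) and without 48 h replicate 2 (adjusted p = 0.0861). GI, a clock gene, had 5.54, 5.51 and 5.75 at 48 h and 6.31, 6.53 and 6.35 at 0 h and changed by -0.80. The gibberellin receptor genes GID1A and GID1B rose by 0.88 and 1.05, and GID1C (-0.19) did not pass. Of 48 named glycosyltransferase (UGT) genes 11 were called higher and 5 lower, with a median of 0.09, and 24 named P450 genes gave 1 and 5. Over all genes 14.5% were called higher and 15.4% lower, and whether these families differ from that was not tested.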
